A study of Homo sapiens with 4 samples.

Results

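The distal end of the long arm of human chromosome 20 was examined for occupancy by GATA4 in PaTu8988S, an established line of pancreatic adenocarcinoma cells. The members were the listed intervals on chromosome 20 that start at 55 Mb or later, in build hg19, up to the last interval of the chromosome. They numbered 545 of the 1832 intervals on chromosome 20 (29.7%) and of the 21308 in the whole list (2.56%). The limits were chosen by where intervals were dense or sparse along the chromosome, so the number and density of members are given as a description, with no test. No member was left out by a filter.

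GATA4 was mapped by CUT&RUN. In this method an antibody bound to its target protein in permeabilised cells recruits a nuclease, and the released DNA fragments are sequenced. There was 1 group of 4 libraries, each from 500000 cells incubated with 10 ug of the anti-GATA4 antibody MAB2606, with no treatment or genotype named in the labels. The labels do not say whether the libraries came from separate cultures, and a library with an untargeted antibody was not analysed here. The authors deposited 1 list of the intervals common to the 4 libraries, so neither a spread between libraries nor a depth can be given, and each interval carries only its start and its end.

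GATA4 is a zinc-finger transcription factor that binds a short motif with GATA at its core and acts in the development of endoderm, heart and gut. GATA4, GATA5 and GATA6 form the subfamily found in these tissues, and GATA4 and GATA6 are studied in pancreatic cancer as regulators of its classical, epithelial expression programme. GATA5 is a gene of distal chromosome 20. In the RefSeq gene table of GRCh38.p14, used here for names and order only, it lies between RBBP8NL and SLCO4A1. The same table lists 95 protein-coding genes from TFAP2C, which encodes an AP-2 transcription factor, to PCMTD2, the last on the chromosome. Between TFAP2C and CDH4, a cadherin gene, lie BMP7 (a secreted BMP ligand), PCK1 (a gluconeogenic enzyme), PMEPA1 (a TGF-beta target that dampens that pathway), GNAS (a stimulatory G protein subunit) and EDN3 (an endothelin). Beyond CDH4 the table lists 64 protein-coding genes, among them LAMA5 (a laminin chain of basement membranes), PTK6 (an epithelial tyrosine kinase), RTEL1 (a telomere helicase) and SOX18 (an endothelial transcription factor). As that table is of another build, no interval was assigned to a gene, and an hg19 sequence was not used here.

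The distal intervals ran from 55004124 to 62960843, a span of 7.96 Mb. They covered 509.6 kb, which is 6.41% of the span. Their density was 68.5 intervals per Mb. The first part of the chromosome, with intervals from 350951 to 49466478, held 569 at 11.6 per Mb. Between them and the distal stretch, from 49609878 to 54855006, lies a dense block of 718 intervals at 136.9 per Mb. The distal density was thus 5.91 times that of the first part of the chromosome and 0.500 times that of the block just before it. Without clusters of 20 or more intervals, which hold most of that block, the second ratio turned to 1.32, and among the first 10560 rows of the list alone the first ratio was 3.78. At the limit itself intervals were few: the last one before it ran from 54854663 to 54855006 (343 bp), and 149.1 kb without an interval followed. The first member ran from 55004124 to 55004887 (763 bp) and the last from 62960359 to 62960843 (484 bp).

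Members were sparser over the first 5 Mb than over the last 3 Mb. Even so, the first 5 Mb held 36.0 intervals per Mb, 3.11 times the 11.6 per Mb of the first part of the chromosome. Windows of 500 kb from 55 to 60 Mb held between 7 and 33 intervals, 180 in all. The emptiest, with 7, was the window starting at 59 Mb, followed by the one starting at 55 Mb with 11. The 6 windows from 60 Mb on held 37, 68, 68, 71, 66 and 55. There was no single step: the first 5 windows of 100 kb from 60 Mb held 5, 5, 10, 5 and 12 intervals, and the highest count, 23, lay between 60.9 and 61 Mb. With 60 Mb as the dividing point, chosen after these counts were seen, the last stretch held 365 members (67.0% of them) at 123.5 per Mb, against 36.0 per Mb in the first, a ratio of 3.43.

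**Figure D1:**
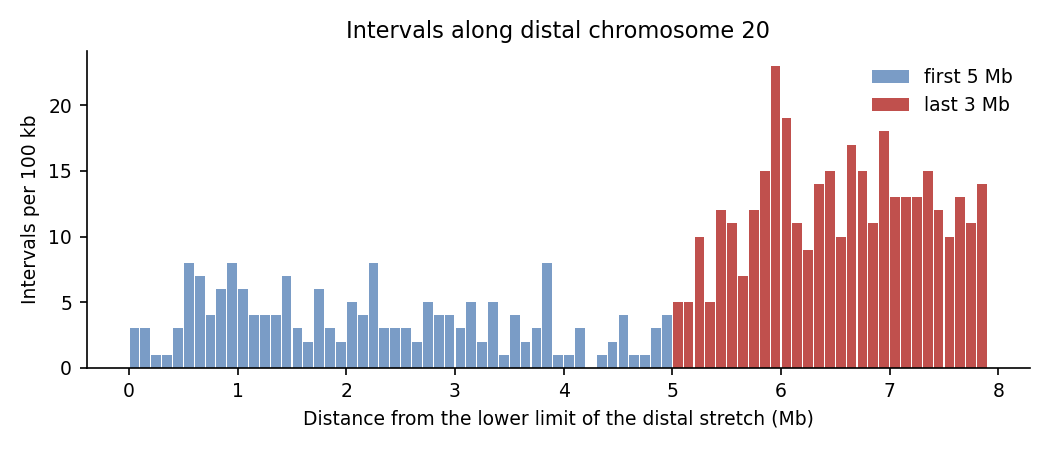
Number of intervals in each 100 kb window (vertical axis) against the distance from the lower limit of the distal stretch in Mb (horizontal axis). Blue bars are the first 5 Mb, with 0 to 8 intervals each, and red bars the 29 whole windows of the last 3 Mb, with 5 to 23 each; the incomplete last window is not drawn.

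Intervals of the last 3 Mb lay in every whole window of 100 kb, with counts from 5 to 23. The 29 windows held 12.3 ± 4.11 intervals (mean and SD over windows), and none was empty. The variance of these counts was 1.37 times their mean. In the first 5 Mb the 50 windows held on average 3.6 ± 2.09 intervals (mean and SD over windows), with a variance 1.21 times the mean and 1 empty window. In the dense block before the distal stretch the 51 windows held 14.0 ± 10.8 intervals (mean and SD over windows), with a variance 8.39 times the mean. In that block 8 windows were empty, and its fullest held 42. Part of this comes from the nearly empty edge of the block: from 50 to 53 Mb alone the 30 windows held 19.97 ± 7.41 (mean and SD over windows), with a variance 2.75 times the mean. Relative to its mean, the SD was 0.333 in the last 3 Mb and 0.371 from 50 to 53 Mb, which is little different. It was 0.774 over the whole block and 0.581 in the first 5 Mb.

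Clusters were counted next, and at a fixed distance their shares restate the difference in density between the first 5 and the last 3 Mb. When neighbours 12500 bp or less apart were joined, 54 clusters of 3 or more intervals held 397 members (72.8%). A further 70 members stood in 35 pairs and 78 (14.3%) had no neighbour within that distance. In the last 3 Mb 88.8% of intervals were in such clusters and 4.11% stood alone, whereas in the first 5 Mb 40.6% were in clusters and 35.0% alone. Clusters of 20 or more, called dense tracts here, numbered 3 and held 18.4% of the intervals of the last 3 Mb. In the dense block 8 such tracts held 66.7% of its 718 intervals. Density in the last 3 Mb (123.5 per Mb) was close to that of the whole block (136.9 per Mb), which counts its nearly empty edge. From 50 to 53 Mb the block held 19.97 intervals per 100 kb, against 12.3 in the last 3 Mb. The median distance between neighbours was 4.28 kb in the last 3 Mb, against 2.52 kb in the block. Neighbours 1 kb or less apart made up 17.9% of the gaps in the last 3 Mb and 28.6% of those in the block.

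The 3 dense tracts lay within 472 kb of sequence. The largest, chr20:60967559-61089271, held 26 intervals in 121.7 kb, which covered 28.9% of it, with a median width of 1241 bp. Just before it, chr20:60877435-60953793 held 21 intervals in 76.4 kb, covered 35.5% and had a median width of 1268 bp. The third, chr20:61265381-61349680, held 20 intervals in 84.3 kb with a median width of 980 bp. The median widths of all 3 exceeded that of the whole list, 585 bp. Of the 33 clusters of 5 or more intervals, 27 lay in the last 3 Mb, and in 25 of these 27 the median width exceeded 585 bp. The exceptions were chr20:61610902-61647436 with 9 intervals (404 bp) and chr20:62470793-62496094 with 6 (463.5 bp). Of the 6 such clusters in the first 5 Mb, 5 also had a median above 585 bp, so this is not particular to the last 3 Mb. Among single intervals, 76.4% exceeded 585 bp in the last 3 Mb and 55% in the first 5 Mb.

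Nearer the chromosome end, chr20:62663261-62746497 and chr20:62774169-62865556 held 17 intervals each, with median widths of 1128 and 838 bp. In chr20:61675029-61744730 there were 16 (917 bp), in chr20:62271278-62324746 there were 15 (891 bp) and in chr20:61423757-61493717 there were 13 (1151 bp). All of these lie in the last 3 Mb. In the first 5 Mb the largest cluster, chr20:55977237-56036361, held 11 intervals in 59.1 kb, covered 20.7% and had a median width of 1147 bp. It was the only cluster of 10 or more among the 12 of that size that lay outside the last 3 Mb. The other 5 clusters of 5 or more in the first 5 Mb held 5 or 6 intervals each. Among them chr20:58827588-58843205 stood out by narrow intervals, with a median of 402.5 bp over 6 intervals. Across the 33 clusters, intervals covered between 11.6% and 42.6% of a cluster (median 24.1%).

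The longest stretches without an interval all lay in the first 5 Mb. There were 11 gaps of 90 kb or more, none of them in the last 3 Mb. The longest, from 55201147 to 55391749, measured 190.6 kb, and the next, from 59180646 to 59357631, measured 177.0 kb. Of the 10 longest gaps, 7 lay between 58.4 and 60 Mb. In the last 3 Mb the longest gap was 67.6 kb, from 60016110 to 60083716, close to its start.

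Width, the only measure an interval carries besides its place, had a larger median over the last 3 Mb than over the first 5 Mb. The median width was 779 bp over all 545 members (quartiles 536 and 1230 bp, from 209 to 4006 bp). Over the 180 intervals of the first 5 Mb it was 611.5 bp (quartiles 449 and 868.5 bp), and over the 365 of the last 3 Mb it was 900.0 bp (quartiles 601 and 1352 bp). The first value is near the 605 bp of the first part of the chromosome (quartiles 414 and 824 bp). The second lies above the 704 bp of the dense block (quartiles 522.5 and 958 bp), 1.28 times as wide. Density was 0.902 times that of the whole block with its nearly empty edge, so these widths were not compared at like density. The quartiles of all 4 stretches overlap. Intervals of 1 kb or wider numbered 158 of 365 in the last 3 Mb (43.3%) and 36 of 180 in the first 5 Mb. They made up 22.3% of the block, 14.8% of the first part of the chromosome and 18.1% of the whole list. With wider intervals the last 3 Mb were covered to 12.9%, against 10.9% in the block and 2.59% in the first 5 Mb. With 1 pooled list there is no replicate error against which to test these differences.

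**Figure D2:**
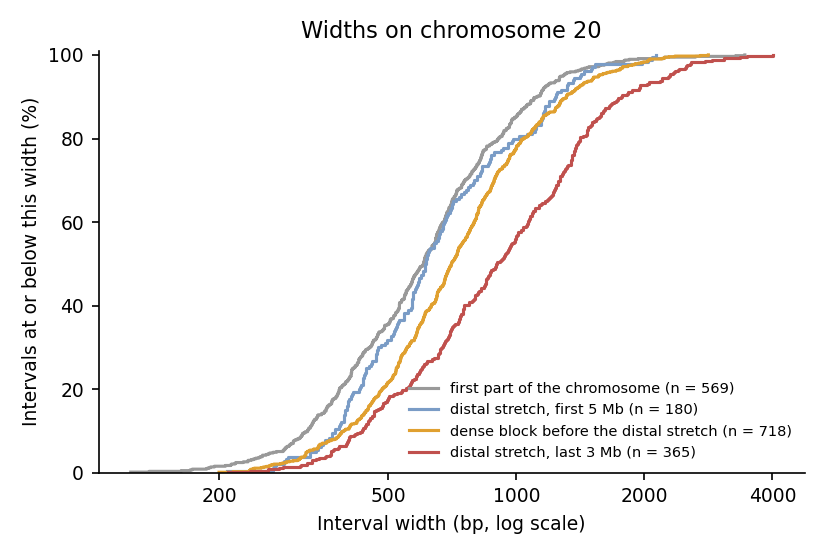
Percentage of intervals at or below a given width (vertical axis) against width in bp on a log scale (horizontal axis), 1 line for each of 4 stretches of chromosome 20. The line of the last 3 Mb (365 intervals) lies to the right, with a median of 900.0 bp, while the first 5 Mb and the first part of the chromosome nearly coincide at their medians (611.5 and 605 bp).

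Median widths were also taken window by window. The 10 windows of 500 kb up to 60 Mb had median widths between 455 and 695 bp, lowest in the window ending at 59 Mb (18 intervals) and the one after it (467 bp, 7 intervals). The window starting at 60 Mb had a median of 701 bp. The next 5 windows had medians of 959, 1001, 972, 918.5 and 849 bp, so that no window of the first 5 Mb reached them. The windows thus fell into 2 groups by both count and width, so no coefficient is given over all 16. Among the 10 windows up to 60 Mb the Pearson r of count with median width was 0.46 and the Spearman rho 0.41: the fullest, with 33 intervals, had a median of 622 bp, and one with 16 had 695 bp. Among the 6 windows from 60 Mb on r was 0.98 and rho 0.90, with the sparse window of 37 intervals apart from the other 5. Neighbouring windows share the same 4 libraries and adjoining sequence, and the coefficients describe this stretch only.

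Within a stretch, width was also set beside the distance to the nearest interval. In the last 3 Mb the median was 966 bp for the 187 intervals with a neighbour within 2 kb, 859 bp for the 163 with one beyond that but within 12500 bp, and 749 bp for the 15 with none so near. In the first 5 Mb the same classes had medians of 600.5, 612 and 611 bp (32, 85 and 63 intervals). In every class the median of the last 3 Mb was above that of the first 5 Mb. Quartiles in the last 3 Mb were 656.5 and 1385.5, 537 and 1282, and 635.5 and 995.5 bp, from near to far. In the first 5 Mb they were 450.5 and 791.75, 441 and 1143, and 463 and 809.5 bp. The quartiles overlap between the classes of a stretch and, in each class, between the stretches.

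The 10 widest members all lay in the last 3 Mb. The widest, chr20:61030007-61034013, spanned 4006 bp inside the largest dense tract. It was the widest of chromosome 20 and the 74th widest of the whole list. The second, chr20:62682689-62686173, spanned 3484 bp inside the cluster of 17 intervals from 62663261. The third, chr20:62201676-62205041 (3365 bp), lay in a cluster of 9, and the fourth, chr20:62321671-62324746 (3075 bp), closed the cluster of 15.

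Among the remaining 6, chr20:61161429-61164306 spanned 2877 bp, chr20:60447814-60450588 spanned 2774 bp, and chr20:60969828-60972396 and chr20:62024380-62026948 spanned 2568 bp each. The last of these stood in a pair and was the only one of the 10 outside a cluster of 5 or more. The final members of this group were chr20:61447411-61449975 (2564 bp) and chr20:62562281-62564805 (2524 bp). In the first 5 Mb the widest interval was chr20:57267714-57269843 with 2129 bp. No interval of chromosome 20 reached 5 kb. Of the 20 widest intervals of the chromosome 14 were distal, 3 lay in the dense block and 3 before it.

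The order of rows in the deposited list, which follows neither position nor chromosome, goes with width. Its first 10560 rows had a median width of 438 bp and the remaining 10748 a median of 803 bp. This row was found as the one that best divides the widths of the whole list, and what the order stands for is not given in the sources used here. Rows of the second section made up 74.5% of the last 3 Mb, 64.9% of the dense block, 52.2% of the chromosome before it and 50.4% of the whole list, and 108 of the 180 intervals of the first 5 Mb. All 10 of the widest members were in the second section, which is partly built in, as the boundary was chosen from the widths.

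Widths were therefore also compared within each section. Among second-section rows the median was 1074.5 bp in the last 3 Mb (272 intervals), 775 bp in the first 5 Mb (108), 825.5 bp in the block (466) and 770.0 bp before it (297). Among first-section rows it was 501 bp (93 intervals), 461 bp (72), 521 bp (252) and 431 bp (272) in the same order. The last 3 Mb were thus 1.30 times as wide as the block in the second section and 0.962 times as wide in the first. Against the first 5 Mb they were 1.39 and 1.09 times as wide. The part of the unstated row order in these widths was not tested.

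**Figure D3:**
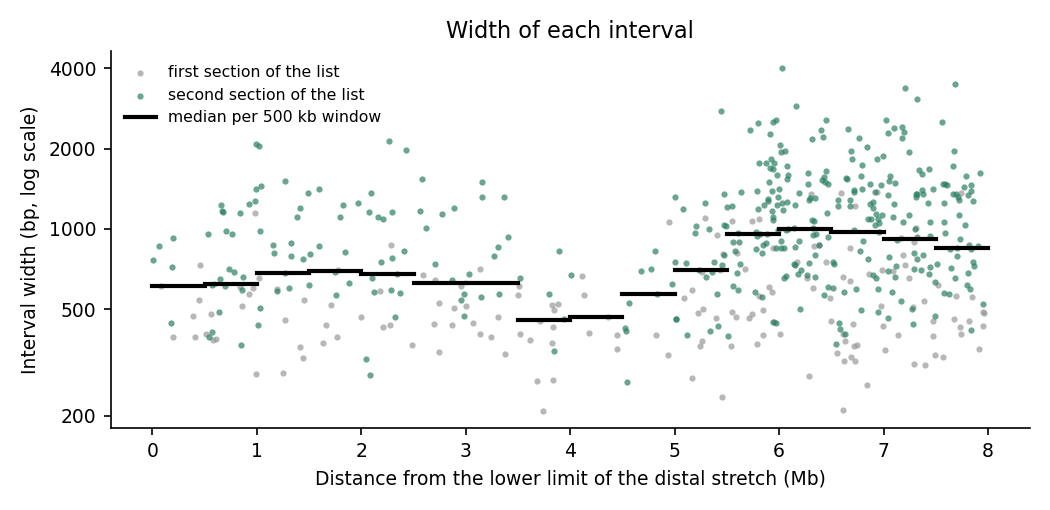
Width of each of the 545 distal intervals in bp on a log scale (vertical axis) against the distance from the lower limit of the stretch in Mb (horizontal axis), grey for rows of the first section of the list and green for the second. Black bars are the medians of 500 kb windows, which lie between 455 and 695 bp over the first 5 Mb and between 701 and 1001 bp over the last 3 Mb.

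The distal stretch was compared with the same length at the far end of the other 21 autosomes and chromosome X, counted back from the last interval of each. With 68.5 intervals per Mb it was second of 23, after chromosome 8 (90.1) and before chromosome 3 (53.5) and chromosome 14 (28.5). The median end held 7.54 per Mb. Relative to the rest of its own chromosome the distal stretch of chromosome 20 was 2.90 times as dense, which was sixth of 23. On chromosomes 3, 4 and 8 the ratio was 10.8, 10.0 and 9.83, and over the 23 ends it had a median of 0.968 and exceeded 1 for 11. In median width the stretch was again second (779 bp) after chromosome 8 (897 bp). Over the last 3 Mb before the final interval, chromosome 20 held 122.3 per Mb and chromosome 8 held 144.3. Over that shorter length the ratio to the rest of the chromosome was 4.98 for chromosome 20, and over the 23 ends its median was 1.94 and it exceeded 1 for 17. For chromosome 20 the rest includes the dense block at both lengths. Against the chromosome before that block the distal stretch was 5.91 times as dense.

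**Figure D4:**
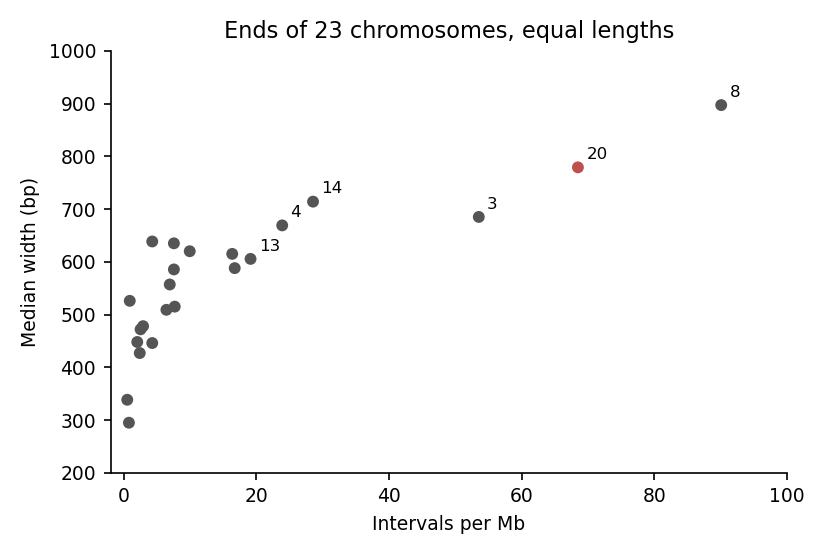
Median interval width in bp (vertical axis) against intervals per Mb (horizontal axis) for the ends of 22 autosomes and chromosome X, each over the length of the distal stretch of chromosome 20. Each point is 1 chromosome, the red point is chromosome 20 (68.5 per Mb, 779 bp), and the 6 densest ends carry their chromosome's name; most ends lie below 10 per Mb, and chromosome 8 lies above chromosome 20 on both axes.

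Among the 938 windows of 3 Mb that held an interval on these 23 chromosomes, counted from each chromosome's start, the one from 60 to 63 Mb on chromosome 20 ranked 5 by count with 365 intervals. The median window held 10. On chromosome 21 the window starting at 15 Mb held 454 intervals with a median width of 737 bp. On chromosome 20 the window starting at 51 Mb held 412 (673 bp), and on chromosome 18 those starting at 18 and 21 Mb held 400 (971.5 bp) and 396 (1012.5 bp). By median width the chromosome 20 window from 60 Mb also ranked 5, of the 29 that held 100 intervals or more, whose medians ran from 458 to 1053 bp. Windows of like count differed in width: on chromosome 20 the one starting at 48 Mb held 358 intervals with a median of 760.0 bp.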

How the data were processed

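GATA4 CUT&RUN was run in 4 libraries of PaTu8988S, which form 1 group. Per the submitters' processing notes, SEACR and HOMER were used with build hg19; their versions, their parameters and the overlap behind a common peak are not stated in the sources used here. The authors deposited start and end positions in bp, pooled over the libraries, with no count, signal or score; depth is unknown. Columns of other samples numbered 0, and 1 blank line was skipped. Positions are printed as in the file, whether they start from 0 or 1 is not stated, and width is end minus start.

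The limits on chromosome 20 were 49.5 and 55 Mb. Density is the number of intervals over the distance from the first start to the last end of a stretch. Intervals were assigned by their start, linked at 12.5 kb (12500 bp), and merged at 1 kb only as an alternative. Linking, merging and the search for the row where width steps up were tested on simulated data. No hypothesis test was run. Scripts ran in Python 3.11.15 (pandas 2.3.3, numpy 2.4.6, scipy 1.17.1), and figures were drawn with matplotlib 3.10.9. The members, limits and measures were chosen with earlier results of these data known. The named intervals are the 10 widest, the first and the last member, the last interval before the limit, and the largest clusters of 5 or more; other clusters and gaps were named after their values were seen. Promoter overlap, motifs and nearby genes, which need hg19 sequence or annotation, were not run.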

Additional observations from a re-analysis of the deposited data

How the results depend on the processing

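Of 52 recomputed values, 41 kept their direction and stayed within 1.5 times or, for median widths, within the 95% exact binomial interval of the median. That interval was 730 to 844 bp for all members and 844 to 988 bp for the last 3 Mb. It treats neighbouring intervals of 1 pooled list as independent, so it served only as a tolerance and measures no spread between libraries. Another 9 values moved further and 2 reversed. Without dense tracts the density relative to the dense block before the distal stretch was 1.32 in place of 0.500, since the tracts hold most of that block. The first section of the list alone left 165 members, 11 clusters, median widths of 484 bp for all members and 501 bp for the last 3 Mb, a density 3.78 times that of the first part of the chromosome, 2.19 times as many per Mb in the last 3 Mb as in the first 5 Mb, and a width ratio to the block of 0.962. The second section alone had median widths of 978.5 and 1074.5 bp. Merging intervals 1 kb or less apart gave 1047 bp in the last 3 Mb, where joining widens intervals by construction. The dividing point, its alternatives 500 kb lower and higher, and the sections were chosen after seeing the data. No paired analysis was possible because the list pools the 4 libraries; leaving out a library, promoter windows and motifs were not run for the lack of values per library and of an hg19 reference.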

Other observations

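Within each section of the list, row number and width were weakly related (Spearman rho of 0.01 over the 10560 rows of the first section and 0.14 over the 10748 of the second). These coefficients describe steady trends only, and the search returns 1 place by construction. Whether width also steps elsewhere in the list was not tested. In the 500 kb windows with the narrowest distal intervals, before and after 59 Mb, 27.8% and 14.3% of rows were in the second section. In the window starting at 61 Mb, with the highest median width, 83.8% were, and in the largest dense tract 96.2%. The share did not follow width throughout. It was 76.9% in the window starting at 59.5 Mb (median 569 bp) and 78.3% in the one starting at 57 Mb (677 bp). The boundary between the sections was itself chosen from the widths, so part of this relation is built in.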
